A study of Homo sapiens with 6 samples.

Results

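The genes described here write, copy and remove DNA methylation: the methyltransferases DNMT1, DNMT3A and DNMT3B, the maintenance factors UHRF1, UHRF2 and HELLS, and the oxygenases TET1, TET2 and TET3. They were taken by symbol from a table of 20036 genes, and all 9 were found, each on 1 row. The table holds RNA-seq read counts in 2 groups of 3 libraries, all made from PANC-1 cells, a long-established line grown from a human pancreatic carcinoma. One group received a lentivirus that knocks down SHMT2, the mitochondrial serine hydroxymethyltransferase that splits serine into glycine and a folate-bound one-carbon unit. The other received a null virus as its control. The labels give neither the time after infection nor the knockdown sequence, nor whether each replicate was a culture of its own. All p-values below therefore reflect the scatter among these 6 libraries alone, and that scatter could be technical.

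Methylated cytosine in CpG pairs is copied to the new DNA strand after replication. UHRF1 recognises the half-methylated CpG and brings DNMT1, which methylates the new strand, while HELLS is a chromatin remodeller needed for methylation of packed repeats. DNMT3A and DNMT3B methylate sites that were bare, and the TET enzymes oxidise methylcytosine with 2-oxoglutarate and iron, a first step towards its removal. Methyl groups for all of this come from S-adenosylmethionine, which the folate and methionine cycles regenerate.

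SHMT2 counts were 139, 56 and 101 in knockdown replicates 1, 2 and 3, against 2113, 2284 and 2417 in control replicates 1, 2 and 3. Library totals ran from 16748432 to 19075734 counts in the knockdown group and from 15405884 to 16366452 in the control group. Within their groups, knockdown replicate 2 and control replicate 1 were the libraries that stood apart. Chi-square per gene between libraries, over genes with at least 10 counts in the pair, was 70.7 and 72.3 for knockdown replicate 2 against its group and 2.40 between the other knockdown libraries. It was 24.6 and 29.4 for control replicate 1 against its group and 2.04 between the other control libraries. Mitochondrially encoded genes took 10.4% of counts in knockdown replicate 2 and 4.72% in both other knockdown libraries, against 5.78% to 6.86% in the controls. Of 8 tested pancreatic duct and epithelial markers, 4 rose and 2 fell. The keratin KRT8 averaged 1410 ± 90.7 CPM in knockdown and 946 ± 101 CPM in control libraries (CPM are counts scaled by library total and TMM factor; SD, n = 3 each). The keratin KRT19 had 1523, 900 and 1518 counts in knockdown replicates 1, 2 and 3, against 3, 4 and 0 in the control replicates. CDH1 and MUC1 also rose, by 2.06 and 1.54 on the log2 scale, while EPCAM fell to 6.94 ± 0.862 CPM in knockdown, against 18.1 ± 0.527 CPM in control libraries (SD, n = 3 each), and SOX9 changed by -0.39.

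Most markers of other cell types did not pass the filter on low counts, and those that did were called. Of 6 immune markers 1 passed: CD14 averaged 2.37 CPM in knockdown and 1.19 CPM in control libraries, while PTPRC had 4 and 1 counts over the knockdown and control groups. Of 4 endothelial markers 1 passed: KDR had 114, 100 and 132 counts in knockdown replicates 1, 2 and 3, against 4, 4 and 4 in the control replicates, while PECAM1 had 2 and 2 counts over the groups. Of 6 fibroblast markers 2 passed: COL1A1 averaged 44.3 CPM in knockdown and 83.8 CPM in control libraries and COL3A1 5.09 and 2.38 CPM, while COL1A2 and DCN had 0 counts in every library. None of 8 acinar and endocrine markers passed. The part of these markers in the results below was not tested.

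Promoter sequences from RefSeq (GRCh38.p14; 250 bases before to 50 after each annotated start) were found for all 9 genes, in 20 windows. They are given for UHRF1, DNMT1 and HELLS, the 3 of the 9 genes in which at least 1 window holds the letters TTTNNCGC on either strand, a loose form of the E2F site of replication genes. Capitals mark these letters, and each sequence is read 5′ to 3′ on the gene's strand. UHRF1 has 3 windows, and the one shown is the first along the chromosome.
UHRF1, chr19:4909251-4909550, plus strand: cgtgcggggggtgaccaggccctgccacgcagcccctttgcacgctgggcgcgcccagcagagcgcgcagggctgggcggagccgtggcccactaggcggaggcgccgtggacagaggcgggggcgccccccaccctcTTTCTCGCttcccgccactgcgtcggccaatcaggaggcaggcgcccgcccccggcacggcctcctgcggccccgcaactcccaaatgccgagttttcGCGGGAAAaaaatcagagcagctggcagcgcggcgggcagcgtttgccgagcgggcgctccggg
DNMT1, chr19:10194904-10195203, minus strand: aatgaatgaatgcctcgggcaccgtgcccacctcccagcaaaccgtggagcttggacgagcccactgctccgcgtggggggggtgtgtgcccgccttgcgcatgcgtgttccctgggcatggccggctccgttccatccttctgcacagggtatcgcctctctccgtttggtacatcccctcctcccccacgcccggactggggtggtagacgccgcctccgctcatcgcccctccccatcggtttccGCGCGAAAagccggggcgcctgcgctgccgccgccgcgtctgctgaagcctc
HELLS, chr10:94545538-94545837, plus strand: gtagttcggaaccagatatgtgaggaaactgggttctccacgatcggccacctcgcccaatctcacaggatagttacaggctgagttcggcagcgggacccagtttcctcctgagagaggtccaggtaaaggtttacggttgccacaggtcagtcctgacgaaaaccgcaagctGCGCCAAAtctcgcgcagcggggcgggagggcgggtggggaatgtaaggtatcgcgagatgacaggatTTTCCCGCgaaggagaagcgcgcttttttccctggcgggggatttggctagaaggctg
The same letters occurred in 6.89% of all 35116 windows and in at least 1 window of 8.23% of 27305 genes, against 21 of 40 DNA replication and S phase genes with a window and 3 of 25 G2 and mitosis genes. UHRF1 has 2 matches in the window shown and 1 in its next window, DNMT1 has 1 that spans the annotated start, and HELLS has 2. A match of letters is a description of the sequence and not evidence of binding. The windows also differ in CpG pairs, the substrate of the encoded enzymes (median of all windows 14). The UHRF1 windows hold 36, 40 and 46, the DNMT1 window 30 and the HELLS window 22. The 3 TET1 windows hold 10, 6 and 11. The only DNMT3B window holds 3, but it runs from 32779602 to 32779901, inside the gene, whose deposited start is 32762385. CpG pairs at that deposited start were not counted. The UHRF1, DNMT1 and HELLS windows also lie within the deposited spans of those genes. The UHRF2 window holds 26, the DNMT3A windows 18 to 46, the TET2 windows 13 and 35 and the TET3 windows 45 and 33.

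Among the maintenance genes, UHRF1 and DNMT1 fell in the knockdown libraries, and UHRF2 and HELLS did not pass the test. UHRF1 (ENSG00000276043, chromosome 19, 4903080 to 4962154, plus strand) stood at 91.0, 95.1 and 95.5 CPM in knockdown replicates 1, 2 and 3, against 213, 217 and 209 CPM in control replicates 1, 2 and 3. The groups lay far apart, each within a narrow band. Its knockdown mean was 44.2% of the control mean, a log2 fold change of -1.18 (SE 0.076). The quasi-likelihood test of edgeR gave an adjusted p of 3.44e-05, corrected by Benjamini-Hochberg over 12292 tested genes. Of 48 DNA replication and S phase genes, all tested, only E2F2 and CDC25A had a lower log2 fold change than UHRF1.

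DNMT1 (ENSG00000130816, chromosome 19, 10133342 to 10231286, minus strand) had 207, 267 and 203 CPM in knockdown replicates 1, 2 and 3, against 321, 324 and 321 CPM in the control replicates. All knockdown libraries were lower than all controls, and knockdown replicate 2, the library that stood apart, was the nearest to them. DNMT1 averaged 70.0% of its control mean in the knockdown, and edgeR put the log2 fold change at -0.51 (SE 0.12) with an adjusted p of 0.00827. With knockdown replicate 2 and control replicate 1 both left out it was -0.65 (SE 0.040), and with a gene length trend as offset -0.78. That trend used the deposited lengths, for DNMT1 15379 bases against 5408 for its principal coding transcript. Of the 48 S phase genes, 16 had a lower log2 fold change than DNMT1.

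HELLS (ENSG00000119969, chromosome 10, 94545329 to 94613905, plus strand) overlapped between groups, at 143, 155 and 139 CPM in knockdown replicates 1, 2 and 3, against 149, 139 and 136 CPM in the control replicates. Its log2 fold change was 0.044, with a 95% interval from -0.15 to 0.24 (adjusted p = 0.69 in edgeR), and 40 of the 48 S phase genes had a lower one. UHRF2, a paralogue of UHRF1 (ENSG00000147854, chromosome 9, 6413151 to 6507054, plus strand), had 37.9, 33.8 and 37.8 CPM in knockdown replicates 1, 2 and 3. Its control replicates had 40.1, 29.9 and 30.9 CPM, and control replicate 1 lay above every other library. The log2 fold change was 0.12, with a 95% interval from -0.19 to 0.43 (adjusted p = 0.486 in edgeR). Without knockdown replicate 2 and control replicate 1 together, UHRF2 was called higher at 0.32 (SE 0.080, adjusted p = 0.000116 in edgeR). The pairs of libraries left in that fit are the ones with a chi-square per gene of 2.40 and 2.04, and 73.6% of 12415 tested genes were called there.

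For both de novo methyltransferases the knockdown libraries all lay above the controls, but only DNMT3B was called. DNMT3B (ENSG00000088305, chromosome 20, 32762385 to 32809359, plus strand) had 15.1, 16.9 and 15.1 CPM in knockdown replicates 1, 2 and 3, against 11.45, 10.95 and 11.45 CPM in the control replicates. Its log2 fold change was 0.47 (SE 0.11, adjusted p = 0.00873 in edgeR), and leaving out any 1 library gave 0.41 to 0.50 with adjusted p from 0.013 to 0.043. DNMT3A (ENSG00000119772, chromosome 2, 25227855 to 25342590, minus strand) had 14.8, 13.4 and 16.9 CPM in knockdown replicates 1, 2 and 3, against 9.12, 11.0 and 13.0 CPM in the control replicates. The highest control and the lowest knockdown library almost touched. Its log2 fold change of 0.44 (SE 0.16) lay just outside the threshold at an adjusted p of 0.0517 in edgeR. The DESeq2 Wald test (adjusted p = 0.0479) and limma-voom (0.0468) put it just inside. So did edgeR without knockdown replicate 2 (0.51, adjusted p = 0.0354) or without control replicate 3 (0.58, adjusted p = 0.0375). Leaving out any other library gave adjusted p from 0.1 to 0.153, and the gene length trend gave 0.21 (adjusted p = 0.391).

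The TET genes did not move together. TET3 (ENSG00000187605, chromosome 2, 73984910 to 74108176, plus strand), the most abundant of them, had 70.8, 80.2 and 68.0 CPM in knockdown replicates 1, 2 and 3, against 95.8, 92.2 and 89.1 CPM in the control replicates. It fell, with groups that did not overlap and a log2 fold change of -0.34 (SE 0.094, adjusted p = 0.0181 in edgeR). With the gene length trend it was -0.55. The call was lost without knockdown replicate 1 (adjusted p = 0.0789), knockdown replicate 3 (0.0829) or control replicate 2 (0.0605). TET2 (ENSG00000168769, chromosome 4, 105145875 to 105279816, plus strand) had 25.4, 33.2 and 25.2 CPM in knockdown replicates 1, 2 and 3, against 32.2, 23.6 and 26.2 CPM in the control replicates. In each group the library that stood apart was the high one, and the log2 fold change was 0.026, with a 95% interval from -0.34 to 0.40 (adjusted p = 0.901 in edgeR). TET1 (ENSG00000138336, chromosome 10, 68560337 to 68694487, plus strand) was near the floor of the assay, with 91, 70 and 65 counts in knockdown replicates 1, 2 and 3, against 70, 32 and 36 counts in the control replicates. These are 4.52, 4.27 and 3.36 CPM in the knockdown and 4.40, 2.14 and 2.28 CPM in the control replicates. Only control replicate 1 lay among the knockdown libraries. TET1 did not pass the test (log2 fold change 0.46, 95% interval from -0.23 to 1.15, adjusted p = 0.23 in edgeR). Without control replicate 1 it was called higher, at 0.87 (adjusted p = 0.0165).

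**Figure D1:**
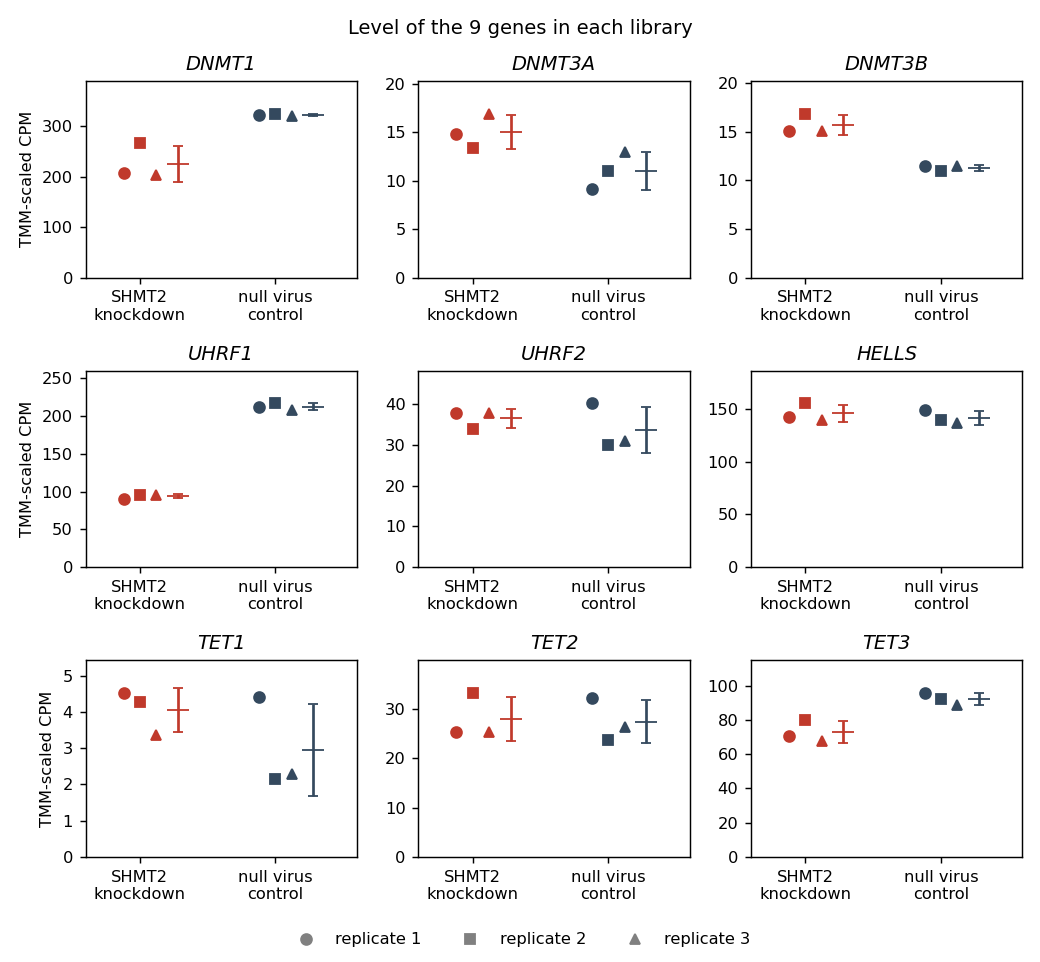
TMM-scaled CPM of each of the 9 genes (y axis, from 0) in SHMT2 knockdown libraries (red, left) and null virus control libraries (dark, right), 1 symbol shape per replicate number, with the mean and SD beside them. UHRF1 shows the widest gap (91.0 to 95.5 against 209 to 217 CPM), and control replicate 1 (circle) is the high control library for UHRF2, TET1 and TET2.

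Counted together, 1 of the 9 genes was called higher (DNMT3B), 3 were called lower (UHRF1, DNMT1 and TET3) and 5 were not called. Over all tested genes, 26.7% were called higher, 25.1% lower and 51.8% in either direction. Groups did not overlap in 5 of the 9 genes, against 61.4% of all tested genes. The number of calls among these genes is therefore near the background of this comparison. With knockdown replicate 2 and control replicate 1 both left out, 4 were higher (DNMT3A, DNMT3B, UHRF2 and TET1) and 3 lower. In that fit 73.6% of all 12415 tested genes were called, 4576 higher and 4559 lower.

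Neighbouring genes on the chromosome had moved in the same direction around several of these genes. The median log2 fold change of the nearest tested genes, 25 on each side, was -0.49 around UHRF1, where 27 of 50 neighbours were called lower and 4 higher. Around TET3 it was -0.34, the same value as TET3 itself, with 19 of 50 neighbours lower and 5 higher. Around DNMT1 it was -0.29, with 14 of 50 lower and 9 higher, against 25.1% lower and 26.7% higher over all tested genes. UHRF2, near the end of its chromosome arm with 43 neighbours, lay where the median was 0.45, with 22 neighbours higher and 5 lower. The medians were 0.13 around DNMT3B and -0.084 around DNMT3A, below the values of those genes. Around HELLS, TET1 and TET2 they were 0.17, 0.11 and 0.026. The part of the neighbourhood in these fold changes was not tested.

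**Figure D2:**
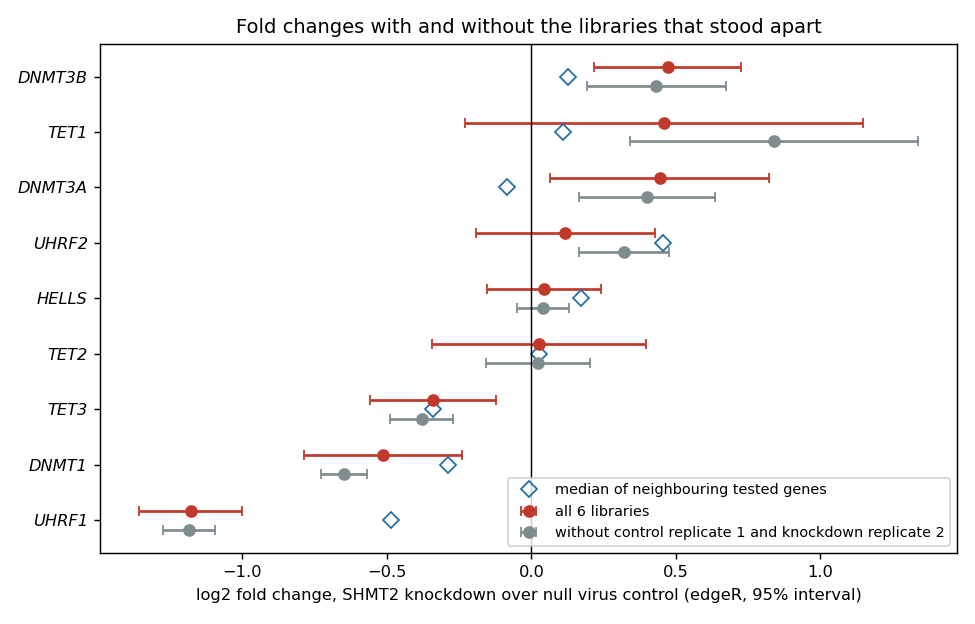
Log2 fold change of SHMT2 knockdown over null virus control (x axis) for each gene, with its 95% interval, from all 6 libraries (red) and without control replicate 1 and knockdown replicate 2 (grey). Open diamonds give the median over neighbouring tested genes, which is -0.49 at UHRF1 (-1.18) and equals the value of TET3 at -0.34.

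Levels of different genes were compared per length, as FPKM (fragments scaled by gene length and library total). The deposited lengths exceed those of the main coding transcripts, so FPKM was also given per length of the principal coding transcript in GENCODE 29. For HELLS the table uses 14231 bases against 3099 for that transcript, for UHRF2 9919 against 3452 and for DNMT1 15379 against 5408, whereas for UHRF1 they are 5145 and 4309. By table length, UHRF1 led with 18.8 ± 0.76 FPKM in knockdown and 40.2 ± 0.913 FPKM in control libraries, followed by DNMT1 with 15.02 ± 1.67 and 20.4 ± 0.19 FPKM (SD, n = 3 each). HELLS, TET3 and UHRF2 came next in both groups. DNMT3A with 1.13 ± 0.173 and 0.779 ± 0.133 FPKM and TET1 with 0.433 ± 0.0636 and 0.298 ± 0.13 FPKM came last. No neighbours in that order overlapped among the knockdown libraries. Among the controls DNMT3B at 1.55 to 1.63 FPKM overlapped TET2 at 1.40 to 1.91 FPKM. By principal transcript length, HELLS led among the knockdown libraries with 48.3 ± 0.743 FPKM, its range overlapping that of DNMT1 (42.7 ± 4.76), and UHRF1 was at 22.4 ± 0.908. Among the controls on that scale DNMT1 led with 57.9 ± 0.541 FPKM, followed by UHRF1 (48.0 ± 1.09) and HELLS (44.3 ± 2.31), of which the last pair overlapped.

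**Figure D3:**
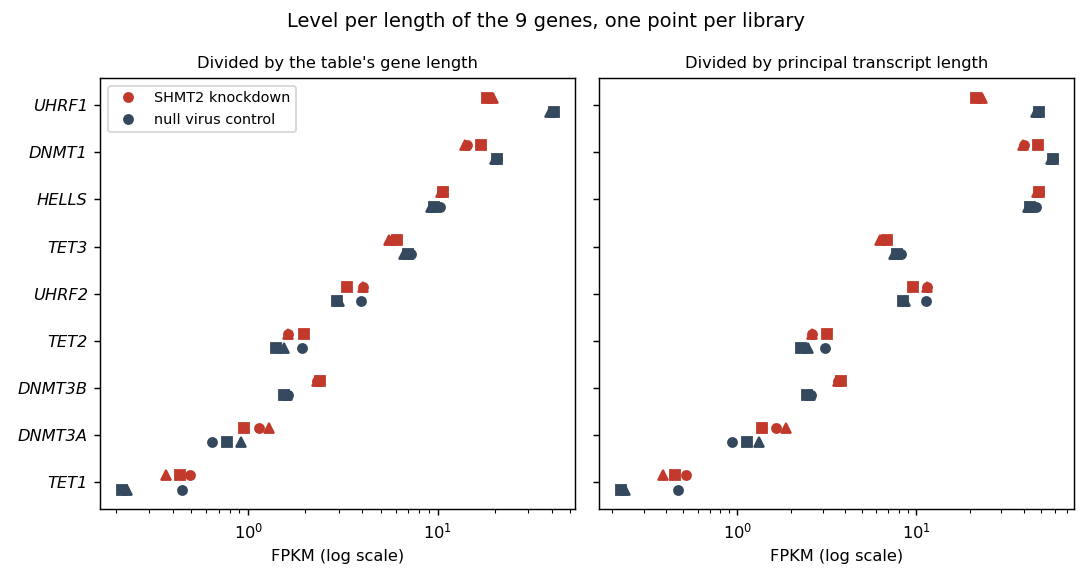
FPKM on a log axis for each gene and library, divided by the table's gene length (left panel) or by the length of the principal coding transcript (right panel), knockdown in red and control in dark with 1 shape per replicate number. HELLS lies below UHRF1 and DNMT1 in both groups on the left, whereas on the right it lies above UHRF1 in the knockdown (48.3 against 22.4 FPKM on average), and TET1 is lowest in both panels.

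In the make-up of both enzyme families, by FPKM per table length, the groups did not overlap. DNMT1 made up 80.4%, 83.5% and 79.5% of the summed DNMT FPKM in knockdown replicates 1, 2 and 3, against 90.0%, 89.8% and 88.9% in the control replicates. DNMT3B took 12.7% ± 0.778 in knockdown and 7.02% ± 0.209 in control libraries, and DNMT3A 6.16% ± 1.37 and 3.43% ± 0.59 (SD, n = 3 each). Within the TET family, TET3 took 73.1%, 71.6% and 73.7% in knockdown replicates 1, 2 and 3, against 75.4%, 81.1% and 79.0% in the control replicates. Shares of TET2 were 21.8% ± 1.36 and 18.2% ± 1.80, and of TET1 5.44% ± 0.738 and 3.31% ± 1.18, in knockdown and control libraries (SD, n = 3 each). Each of the 6 shares gave p = 0.1 (exact permutation test, two-sided, also 0.1 when adjusted over 6 shares), the smallest p that 3 against 3 libraries can give. Shares within a family are not independent, since a fall in 1 member raises the shares of the others. The log2 fold change of TET2 itself was 0.026 (adjusted p = 0.901 in edgeR). These shares depend on the lengths used: by principal transcript length DNMT1 averaged 88.8% in knockdown and 94.0% in control libraries.

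Ratios within a library, which do not depend on library scaling, set UHRF1 beside its paralogue and its partner. The log2 ratio of UHRF1 to UHRF2 FPKM was 2.21, 2.44 and 2.28 in knockdown replicates 1, 2 and 3, against 3.35, 3.80 and 3.70 in the control replicates, a difference of -1.31. That of DNMT1 to UHRF1 was -0.40, -0.093 and -0.49 in the knockdown, against -0.98, -0.998 and -0.96 in the control replicates, a difference of 0.65. Both gave p = 0.1, the smallest possible (exact permutation test, two-sided; 0.15 adjusted over 3 ratios). Summed DNMT over summed TET FPKM, at 1.21 ± 0.052 in knockdown and 1.36 ± 0.105 in control libraries on the log2 scale (SD, n = 3 each), overlapped between groups (exact permutation p = 0.2).

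Profiles over the 6 libraries were also matched with those of all tested genes averaging at least 5 CPM, by the root mean square difference of centred log2(CPM + 0.5), as a description with no test. The nearest to UHRF1 were SREBF2, the activator of cholesterol synthesis genes (difference 0.031), CASZ1 (0.034) and SH3PXD2A (0.038). Nearest to DNMT1 were CS, citrate synthase (0.023), CASC3 (0.030) and SUPT6H (0.030). HELLS lay closest to PRRC1 (0.011) and KIF4A, a chromosome motor (0.019), and DNMT3B to MADD (0.025), DPM1 (0.027) and TPCN1 (0.029). For TET3 they were FAM120A (0.023), SH3PXD2B (0.025) and SCAMP2 (0.029), for TET2 NLN (0.046), FERMT2 (0.047) and MFAP1 (0.047). For UHRF2 they were TM9SF3 (0.033), PARG (0.038) and DYNC1I2 (0.041). The closest matches were looser for DNMT3A (MYLIP 0.062, PACC1 0.063, ZNF419 0.072) and TET1 (TASOR 0.10, FAM214A 0.11, ARRDC3 0.11).

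Other genes of the pathway moved in both directions. Of 19 tested partners of the methyltransferases, 3 rose and 5 fell, with a median log2 fold change of -0.015 (0.003 over all tested genes). Over all tested genes, 26.7% were called higher and 25.1% lower, the background for the counts of this and the later lists. TRIM28, which anchors silencing complexes on repeats, fell to 388 ± 35.5 CPM in knockdown, against 767 ± 77.3 CPM in control libraries, and CDCA7, the partner that activates HELLS, to 70.7 ± 4.72, against 117 ± 2.92 CPM (SD, n = 3 each). KMT5B, a histone H4 methyltransferase, rose by 0.78 on the log2 scale (SE 0.10), and EHMT1, a histone H3 methyltransferase, changed by -0.53 (SE 0.091). PCNA, the replication clamp that holds DNMT1, changed by -0.34 (adjusted p = 0.0305 in edgeR) and was named after its value was seen. DNMT3L and DPPA3 had 0 counts in every library. Without control replicate 2, or without control replicate 3, 1 partner rose. In those fits 38.0% and 38.4% of all tested genes were called, against 51.8% with all 6 libraries.

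TET partners and repair genes were called higher in 6 and lower in 5 of 21, with a median of -0.044. That number of calls was near the share over all tested genes, of which 51.8% were called. GADD45A, a stress protein linked to demethylation, rose by 0.91 (SE 0.13) to 53.9 ± 3.25 CPM in knockdown, against 28.6 ± 4.66 CPM in control libraries. The glycosylase NEIL3 rose by 1.10 (SE 0.17) and OGT, the sugar transferase that binds TET proteins, by 0.60 (SE 0.095). APEX1, the abasic site endonuclease, changed by -0.52 (SE 0.096), a call lost with a gene length trend (adjusted p = 0.0656). TDG, which excises the bases that TET enzymes oxidise, changed by -0.47 (SE 0.090, adjusted p = 0.00386 in edgeR) and was named after its value was seen. Methyl-CpG readers were higher in 2 and lower in 3 of 12, with a median of -0.075. CHD4, one of the 12, had only 5.78 ± 2.78 CPM in knockdown and 6.03 ± 2.43 CPM in control libraries (SD, n = 3 each), few for a broadly expressed gene, and its counting is uncertain. ZBTB33, a zinc finger reader, rose to 111 ± 6.84 CPM in knockdown, against 43.4 ± 12.5 CPM in control libraries, while GATAD2A fell to 74.2 ± 13.4, against 143 ± 8.11, and MBD3 to 25.9 ± 4.48, against 47.0 ± 4.70 CPM (SD, n = 3 each). Readers had 1 call higher without knockdown replicate 1, knockdown replicate 3, control replicate 2 or control replicate 3. TET partners and repair genes had 3 calls lower without knockdown replicate 1 or control replicate 1, and 2 without control replicate 2 or control replicate 3. Of all tested genes, 42.4% were called without knockdown replicate 1 and 43.9% without knockdown replicate 3. Without control replicates 1, 2 and 3 in turn, 54.3%, 38.0% and 38.4% were called.

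Genes of the methyl donor and of TET cofactors were split, with numbers of calls near the background of all tested genes (51.8% called). Of 15 tested genes of the S-adenosylmethionine cycle, 4 rose and 4 fell, with a median of -0.097. MAT2A, which makes S-adenosylmethionine, rose to 739 ± 8.10 CPM in knockdown, against 455 ± 16.6 CPM in control libraries, a log2 fold change of 0.70 (SE 0.077). NNMT, which spends methyl groups on nicotinamide, had 64, 47 and 71 counts in knockdown replicates 1, 2 and 3, against 0, 1 and 5 in the control replicates. GAMT, the creatine methyltransferase, fell by 0.74 and AHCYL1 rose by 0.39 on the log2 scale. Among enzymes of 2-oxoglutarate, succinate, fumarate and 2-hydroxyglutarate, 5 rose and 8 fell of 25, with a median of -0.034. SDHA, one of the 25, had 2.30 ± 0.356 CPM in knockdown and 2.59 ± 0.937 CPM in control libraries (SD, n = 3 each), and is uncertain in the same way. IDH1, the cytosolic enzyme that makes 2-oxoglutarate, rose to 131 ± 8.50 CPM in knockdown, against 70.2 ± 1.52 CPM in control libraries. The mitochondrial transaminase GOT2 fell to 98.0 ± 4.21, against 188 ± 16.5 CPM (SD, n = 3 each). IDH3A changed by -0.77 and OGDH, which consumes 2-oxoglutarate, by -0.63. Without knockdown replicate 1, knockdown replicate 3, control replicate 2 or control replicate 3, 3 of these enzymes rose. In those fits 42.4%, 43.9%, 38.0% and 38.4% of all tested genes were called.

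Genes whose silence depends on methylation in normal cells were followed as well. Of 24 germline genes, 3 passed the filter on low counts. DDX43 rose by 0.62 (SE 0.14, adjusted p = 0.00876 in edgeR). It was not silent in the controls, at 25.4 ± 2.19 CPM, against 39.1 ± 7.02 CPM in knockdown libraries (SD, n = 3 each). STK31, at 2.32 ± 0.482 CPM in knockdown and 2.11 ± 0.669 CPM in control libraries (SD, n = 3 each), was not called. PIWIL2, named because it completes the 3, was not called either, at -0.78 (adjusted p = 0.118 in edgeR). Of the 21 left out, 11 had 0 counts in every library and no other exceeded 27 counts summed over the knockdown or 10 over the control libraries. Of 20 tested imprinted genes, 7 rose and 6 fell, with a median of 0.14. MEST had 188, 173 and 192 counts in knockdown replicates 1, 2 and 3, against 1, 3 and 2 in the control replicates, while PHLDA2 changed by -1.18, GRB10 by -0.76 and NAP1L5 by -1.27. Of 16 tested genes of RNA sensing and interferon response, 9 rose and 0 fell in edgeR, with a median of 0.34. The list was built around genes known to rise under methyltransferase inhibitors, which need not hold for each gene in it. The 7 not called, named after their values were seen, were ISG15 (-0.21), IFI6 (-0.60), IRF7 (-0.014), IRF9 (-0.033), STAT2 (-0.066), IRF3 (0.16) and MAVS (0.073). None of the 16 fell at an unadjusted p under 0.05, and 0 fell by DESeq2 or limma-voom. IFIT2 had 255, 177 and 221 counts in knockdown replicates 1, 2 and 3, against 19, 12 and 4 in the control replicates, and IFIT3 81, 78 and 65, against 5, 5 and 7.

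Cell cycle genes were set beside UHRF1 and DNMT1, which are known to be expressed mainly in cycling cells. Of 48 DNA replication and S phase genes, 27 fell and 1 rose, with a median of -0.39, and E2F2, an activator of replication genes, fell to 14.1 ± 1.40 CPM in knockdown, against 39.6 ± 1.66 CPM in control libraries (SD, n = 3 each). The origin factor GINS2 changed by -0.93 (SE 0.089). Of 29 tested G2 and mitosis genes, 16 rose and 5 fell, with a median of 0.57. The mitotic kinases NEK2 and AURKA changed by 0.87 and 0.62. Among the 5 that fell were the mitotic kinases PLK1 (-0.58) and AURKB (-0.40), named after their values were seen. The 5 that fell became 3 without knockdown replicate 1, knockdown replicate 3 or control replicate 3, and 2 without control replicate 2. The 1 S phase gene that rose became 2 without knockdown replicate 2 and 0 without control replicate 2 or control replicate 3. Of all tested genes, 42.4%, 53.9% and 43.9% were called without knockdown replicates 1, 2 and 3 in turn. Without control replicate 2 or control replicate 3, 38.0% and 38.4% were called. In bulk RNA, fewer cells in a phase and less RNA per cell cannot be told apart, and the part of the cell cycle in the values of UHRF1 and DNMT1 was not tested.

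**Figure D4:**
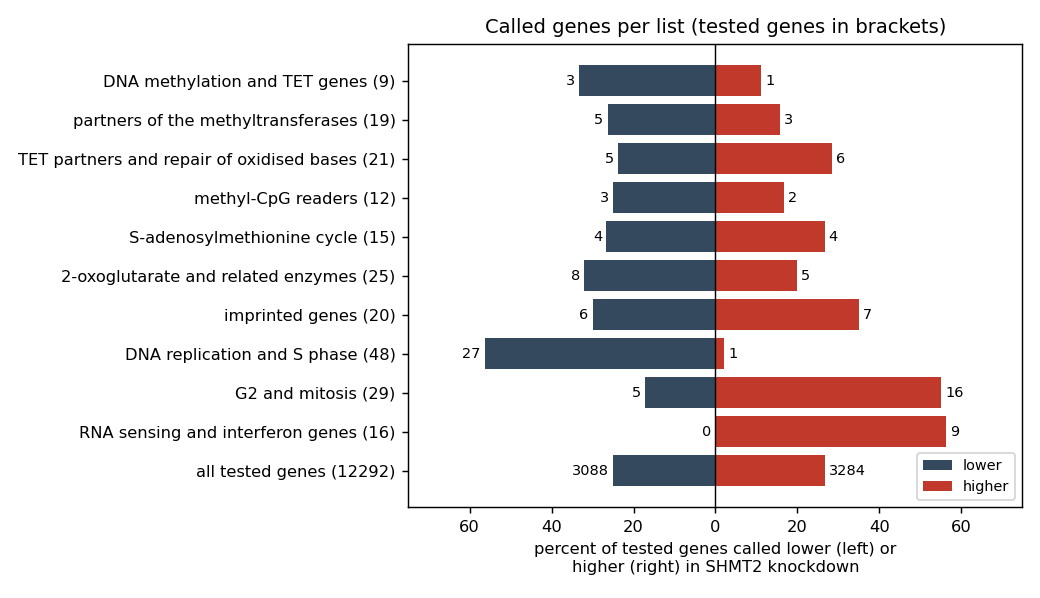
Percent of tested genes called lower (dark, left) and higher (red, right) in SHMT2 knockdown in each list, with counts at the bar ends and the number tested in brackets. The 9 methylation genes (1 higher, 3 lower) have a shorter higher bar and a longer lower bar than all tested genes. Of those, 26.7% (3284) were higher and 25.1% (3088) lower, and a list of 9 genes is small. The S phase bar reaches mainly left (27 of 48 lower) and the G2 and mitosis bar mainly right (16 of 29 higher).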

How the data were processed

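RNA-seq was measured in 6 PANC-1 libraries, grouped by their titles. Per the labels' protocols, RNA was isolated with TRIzol and libraries made with the NEBNext Ultra II kit. The sources used here do not name the aligner, the counter, the genome build or the strand setting. Per the file headers, the deposited table holds unnormalized counts of reads for each gene. The FPKM values the authors deposited equal those computed from its counts, lengths and column totals. Of 19852 identifiers found in GENCODE 29, 79.0% share a start or end with it on GRCh38, and positions are printed as the table gives them. DNMT1 and HELLS share 83 and 438 exon bases there with another gene on the same strand. GENCODE also lists the processed pseudogenes UHRF2P1 and TET1P1. How reads with several matches were counted is not given, so the values of UHRF2 and TET1, and of genes with unusually few counts such as CHD4 and SDHA, are less certain.

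The test was edgeR 4.0.16 (R 4.3.3), with filterByExpr, TMM factors, quasi-likelihood fit without covariates, calls at a Benjamini-Hochberg adjusted p below 0.05. The filter kept 12292 of 20036 genes, all 9 methylation genes among them. Standard errors were derived from the fold change and its F statistic. Exact permutation tests used scipy 1.17.1. Alternatives were other scalings, no filter, DESeq2 1.42.0, limma 3.58.1 (voom, and log2(FPKM + 1)), a smooth gene length trend as offset, the replicate number as a block and libraries left out. The principal transcript lengths, the neighbouring genes and the promoter letters were chosen after the data were seen.

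The genes and lists were chosen with earlier results of these data known. Named list genes are, per list, up to 4 called genes of smallest adjusted p, or the 2 of highest mean where fewer than 2 were called. Symbols not in the table as listed were not analysed here. A few genes that this rule names are not reported here.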

Additional observations from a re-analysis of the deposited data

How the results depend on the processing

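UHRF1, DNMT1, DNMT3B and SHMT2 kept their direction and call in every alternative run. With a gene length trend as offset, the log2 fold changes of genes that were not called turned sign: UHRF2 to -0.022, HELLS to -0.19 (adjusted p = 0.0508) and TET2 to -0.24. The same offset moved DNMT3A to 0.21 (adjusted p = 0.391), DNMT1 to -0.78 and TET3 to -0.55. This offset was built on the deposited gene lengths. For HELLS, UHRF2 and DNMT1 these are 14231, 9919 and 15379 bases, against 3099, 3452 and 5408 for the principal coding transcripts. The values with this offset rest on those lengths. DNMT3A was called with DESeq2 size factors (0.45), library totals alone (0.53), the DESeq2 test (0.44), limma-voom (0.45) and limma on log2(FPKM + 1) (0.26), so 2 of the 9 genes were higher in each of these. Leaving out 1 library gave 0.32 to 0.58 for DNMT3A, 0.27 to 0.87 for TET1, -0.42 to -0.29 for TET3, -0.12 to 0.15 for TET2 (below 0 without knockdown replicate 2, control replicate 2 or control replicate 3) and -0.012 to 0.077 for HELLS (below 0 without knockdown replicate 2), with 1 to 2 of the 9 genes higher. With control replicate 1 and knockdown replicate 2 both left out, DNMT3A (0.40), UHRF2 (0.32) and TET1 (0.84) were called, making 4 higher. In that fit 73.6% of all 12415 tested genes were called. The causes were not tested.

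The share of all tested genes that was called, 51.8% in the main fit, moved with the setting too. It was 38.0% to 54.3% with 1 library left out, 44.3% with the block, 38.9% with no filter and 44.7% by DESeq2. With control replicate 1 and knockdown replicate 2 both left out it was 73.6%. Counts per list moved by over 1.5 times as follows. With both of those libraries left out, higher counts were 7 for methyltransferase partners, 7 for the S-adenosylmethionine cycle, 10 for 2-oxoglutarate enzymes and 7 for S phase, and lower counts 8 for partners, 6 for readers and 7 for the S-adenosylmethionine cycle. TET partners had 2 lower with library totals, 2 with the block and 3 with the length trend. Higher readers were 1 with no filter and 1 with the block. Higher 2-oxoglutarate enzymes were 3 with upper-quartile factors and 3 with the block, higher partners 5 by limma on log2(FPKM + 1), higher germline genes 2 with no filter and 2 by DESeq2, and higher S phase genes 2 with the length trend. Lower G2 and mitosis genes were 3 with library totals, the block, the length trend and limma on log2(FPKM + 1). Leaving out 1 library gave 1 to 4 higher partners, 2 to 5 lower TET partners, 1 to 3 higher readers, 3 to 7 higher 2-oxoglutarate enzymes, 0 to 2 higher S phase genes and 2 to 5 lower G2 and mitosis genes.

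Deviations of same-numbered libraries from their groups correlated at -0.36, -0.34 and 0.37 for replicates 1, 2 and 3. Deviations from a group mean balance out within the group, so these correlations are tied to each other and cannot decide whether the numbers are pairs. The main fit did not take the numbers as pairs. The highest correlation, 0.49, was between knockdown replicate 2 and control replicate 1, the libraries that stood apart. With the replicate number as a block, 5444 genes were called in place of 6372, UHRF1 changed by -1.18 and no call among the 9 genes changed. Scaling by library totals alone moved the share of calls that were higher to 60.2%, in place of 51.5%.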
